A study of Mus musculus with 28 samples.

Results

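The comparison set tubular cells of mouse kidneys after ischemic injury without treatment against tubular cells of injured kidneys that had received a scrambled miRNA, the control for a miR-486-5p mimic. It held 6 of the 28 samples of the series, 3 per group, taken by their titles, and covered all 25412 genes of the authors' deposited table for this contrast. Both groups were labelled as proximal tubular cells from male FVB mice, which per the labels were collected by microdissection after enzymatic digestion of the kidney, and poly(A) RNA was sequenced. Neither group received exosomes or the mimic, and both carried the injury, so the named difference was treatment with the scrambled RNA. The sequence, dose and route of this RNA, like the time after injury, were not given in the sources used here. The RNA and the act of giving it cannot be told apart. The labels give the untreated libraries as re-analyses of samples from an earlier deposit, as they do for the sham (uninjured) libraries, while the scrambled, exosome and mimic libraries carry no such remark. Deposit and treatment therefore cannot be told apart in any value below. Each scrambled-miRNA sample had its own table of transcript levels, and the untreated samples entered only through the authors' deposited tables.

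The proximal tubule reclaims most of the filtered sodium, glucose, amino acids and phosphate and runs on fatty acid oxidation, which makes it vulnerable when blood flow stops. Injured cells lose transporters, switch on the injury markers Havcr1 (KIM-1) and Lcn2 (NGAL), and re-enter a dedifferentiated, Sox9-positive repair state. Stress and handling of tissue also induce immediate early genes, which are transcribed within minutes without new protein synthesis, and NF-kB targets, which include the inhibitors that switch the pathway off again.

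The scrambled-miRNA libraries held 12969393, 10214089 and 8583291 estimated reads, of which 4.51% to 9.73% fell on mitochondrially encoded genes, and the depth of the untreated libraries is unknown here. Proximal tubule genes were abundant in all 3. Slc34a1, the phosphate cotransporter, stood at 1611, 765 and 241 TPM (a level corrected for transcript length and scaled to the library) in scrambled-miRNA libraries 1, 2 and 3. The endothelial marker Pecam1 was at 4.79, 3.92 and 4.84 TPM. In bulk samples, fewer cells of a type and less RNA per cell cannot be told apart.

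The 3 scrambled-miRNA libraries differed from each other in the state of the tubule. Library 1 had the lowest level of 30 of the 39 tested members of the tubule injury list. Library 3 had the lowest level of 44 of the 49 proximal tubule transporters. The summed TPM of the tubule injury list was 1080, 2749 and 4247 in libraries 1, 2 and 3. Havcr1 showed this most plainly, at 5.64, 170 and 376 TPM. Library 1 lay nearer to the exosome libraries, which had 2.19 to 2.8 TPM of Havcr1, and the mimic libraries, which had 1.41 and 1.87 TPM. Krt20, a keratin of injured tubules, was at 0.225, 16.7 and 9.01 TPM. The deposited table gives the 3 libraries as 1 group, so no value of the comparison could be given without library 1.

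**Figure D1:**
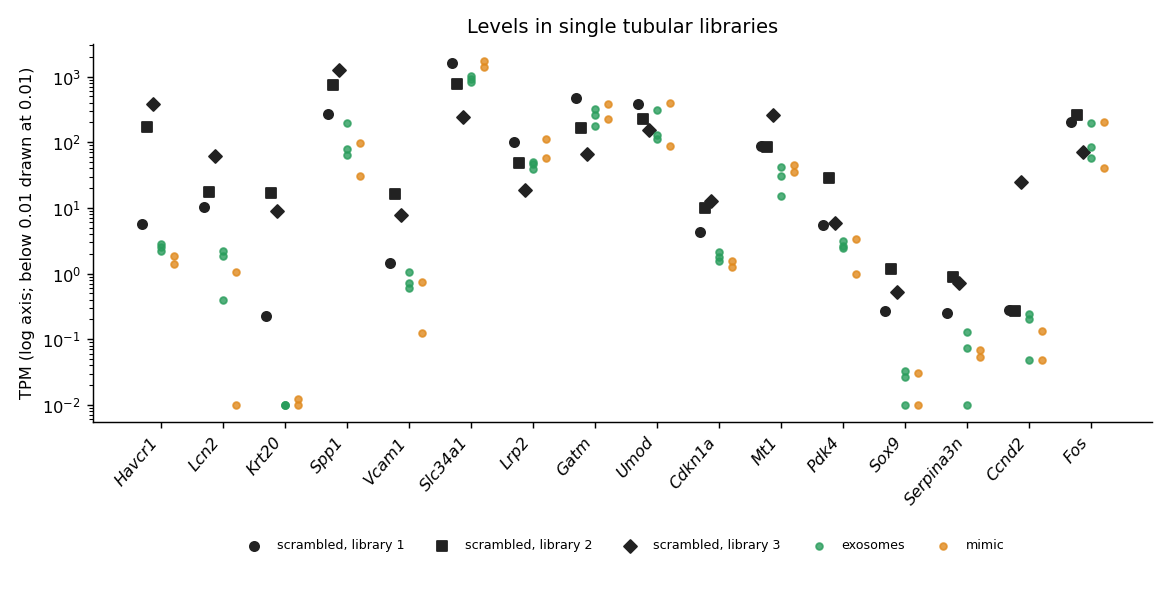
Levels of 16 genes in each tubular library with its own file, in TPM on a log axis. Black markers are the 3 scrambled-miRNA libraries by number, green the 3 exosome libraries and orange the 2 mimic libraries. Havcr1 ran from 5.64 TPM in scrambled-miRNA library 1 to 376 TPM in library 3, and Slc34a1 ran the other way, from 1611 to 241 TPM.

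In the authors' deposited table, 3005 of the 16874 genes with an adjusted p passed the threshold of 0.05, which is 17.8%. Of these, 1866 (11.1% of the genes tested) were higher in untreated injury and 1139 (6.75%) were lower, that is, higher with scrambled miRNA. The median log2 fold over all genes tested was 0.0017, and the median absolute log2 fold of the called genes was 1.04. Past a log2 fold of 1 in size, 1231 genes were higher and 386 were lower, so the larger differences lay mostly on the untreated side. The deposited folds were smaller, relative to their standard errors (SE), than the deposited p-values imply, with a median ratio of 0.841 against 1.37. A gene can therefore be called with a small fold, and the SE given below is the deposited one.

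**Figure D2:**
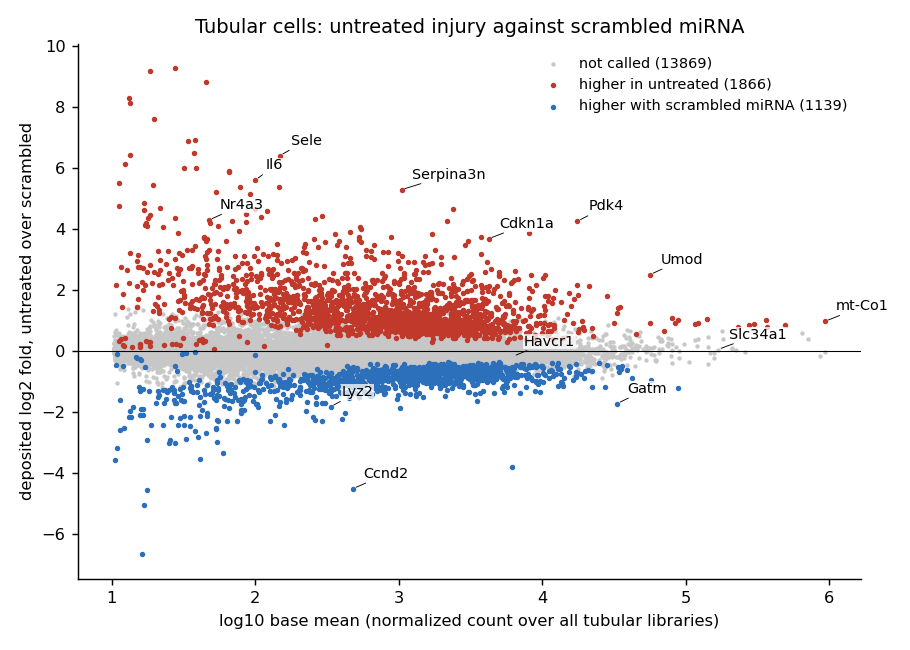
Deposited log2 fold of untreated injury over scrambled miRNA (y axis) against log10 base mean, the normalized count averaged over all tubular libraries (x axis), for the 16874 genes tested. Red points (1866) were called higher in untreated injury, blue points (1139) lower, and gray points were not called. The red points reach further from 0 than the blue ones across most of the range, while Havcr1 and Slc34a1 lie near 0.

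Most immediate early genes were higher in untreated injury. Of the 37 tested members, 25 were called higher and none lower in the authors' deposited table, which is 67.6% against 11.1% of all genes tested, and the median log2 fold was 1.87. All 37 had a positive fold. Arc, which encodes a cytoskeletal protein best known from neurons, was nearly absent from the scrambled-miRNA libraries, at 0.207, 0.486 and 0.0160 TPM (16, 32 and 1 reads), and its deposited log2 fold was 3.91 (SE 0.85, adjusted p = 4.03e-05). Nr4a3, an orphan nuclear receptor, had 2, 0 and 2 reads there and a fold of 4.29 (SE 1.26, adjusted p = 0.000965). Gadd45b, a stress sensor, was at 1.90, 4.58 and 2.46 TPM with a fold of 3.22 (SE 0.83). Btg2, an antiproliferative gene that p53 also induces, was at 18.2, 32.8 and 13.0 TPM with a fold of 2.50 (SE 0.71). The AP-1 genes Fos and Jun were not called. Fos stood at 202, 259 and 71.8 TPM with a fold of 0.43 (SE 0.52, adjusted p = 0.275), and Jun had a fold of 0.44 (adjusted p = 0.259). Atf3 was called with a fold of 0.59 whose SE was 1.23 (adjusted p = 0.0487).

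For 3 of the lists, a promoter is given here from RefSeq (GRCm38.p6), 250 bases before to 50 after the start, 5′ to 3′ on the gene's strand. It belongs to the member with the largest deposited fold among those called higher whose promoter was available to print. Not every called member had such a promoter. The lists were immediate early, NF-kB, and PI3K, AKT and FoxO. They were taken because 25 of 37, 13 of 30 and 13 of 38 members, in that order, were called higher and none lower. Capitals mark matches to searched motifs. Nr4a3 lies at chr4:48045055-48045354 on the plus strand, Il6 at chr5:30012864-30013163 on the plus strand and Ccng2, a FoxO-responsive cyclin gene, at chr5:93267323-93267622 on the plus strand.
Nr4a3: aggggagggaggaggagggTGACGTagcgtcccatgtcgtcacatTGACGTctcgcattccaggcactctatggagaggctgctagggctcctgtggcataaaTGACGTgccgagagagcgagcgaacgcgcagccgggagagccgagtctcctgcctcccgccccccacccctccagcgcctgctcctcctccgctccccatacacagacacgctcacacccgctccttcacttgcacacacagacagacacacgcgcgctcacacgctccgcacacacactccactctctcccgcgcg
Il6: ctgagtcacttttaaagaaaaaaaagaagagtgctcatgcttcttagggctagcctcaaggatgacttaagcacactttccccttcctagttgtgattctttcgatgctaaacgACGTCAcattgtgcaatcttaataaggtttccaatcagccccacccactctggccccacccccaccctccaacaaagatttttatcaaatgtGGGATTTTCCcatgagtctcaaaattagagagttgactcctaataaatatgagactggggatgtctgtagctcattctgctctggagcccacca
Ccng2: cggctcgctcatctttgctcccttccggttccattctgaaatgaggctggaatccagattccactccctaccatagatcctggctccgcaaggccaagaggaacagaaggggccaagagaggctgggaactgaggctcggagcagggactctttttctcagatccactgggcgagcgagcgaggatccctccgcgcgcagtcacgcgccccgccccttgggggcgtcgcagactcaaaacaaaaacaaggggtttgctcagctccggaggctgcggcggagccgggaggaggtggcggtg

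In all, 5 motifs were searched on both strands in the 300-base windows. They were the cyclic AMP response element TGACGTCA, its shorter core TGACGT, which overlaps it, the NF-kB motif in the form that Il6 holds (GGGATTTTCC) with any base in place of the fifth, the forkhead motif TGTTTAC and the CArG box of serum response factor. The core was added after the full element had been counted, and the promoters to print were changed after matches had been seen. The full element stood in 2 of the 21 promoters of called immediate early genes and 1 of the 8 of those not called, against 3.02% of 11551 promoters of genes tested. The core stood in 5 of 21 and 2 of 8, against 11.3%. The CArG box stood in 2 of 21 and 0 of 8, against 1.31%. The NF-kB motif stood in 2 of 11 called and 2 of 15 uncalled members of the NF-kB list, against 0.372%. Il6, which set the form of this motif, was 1 of the 2 called members, so that match was fixed in advance. The forkhead motif stood in 2 of 11 called and 2 of 21 uncalled members of the PI3K, AKT and FoxO list, against 2.72%. The sets are too small to compare. Nr4a3 held 3 cores, Il6 a core and an NF-kB match, and Ccng2 none of the 5.

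Part of the NF-kB pathway genes were also higher in untreated injury. Of the 30 tested members (subunits, targets and feedback inhibitors), 13 were called higher and none lower in the authors' deposited table (43.3% against 11.1% of all genes), with a median log2 fold of 0.68. Tnfaip3 (A20), a deubiquitinase that shuts the pathway down, was at 0.590, 1.83 and 0.568 TPM in the scrambled-miRNA libraries and showed a fold (log2) of 2.93 (SE 0.80, adjusted p = 0.000645). Birc3, an inhibitor of apoptosis, was at 1.96, 5.98 and 5.76 TPM with a fold of 2.34 (SE 0.61). The cytokine genes were at the edge of detection. Il6 had 0, 0 and 1 reads in the scrambled-miRNA libraries and a deposited fold of 5.59 with an SE of 3.59 (adjusted p = 0.0103). Lif, another cytokine of the Il6 family, was at 0.0341, 0.307 and 0.536 TPM with a fold of 3.23 (SE 1.09). Members without a call included the deubiquitinase gene Cyld, at 7.52, 7.53 and 7.60 TPM with a fold of 0.01 (SE 0.17), and the adhesion molecule gene Vcam1, at 1.45, 16.2 and 7.68 TPM with a fold of 0.02 (SE 0.39). For chemokines, 2 of 23 tested members were called higher, which was under the share over all genes.

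Serpina3n, an acute-phase protease inhibitor gene on chr12:104406729-104414329 (GRCm38), was far higher in untreated injury. It was at 0.249, 0.875 and 0.725 TPM in the scrambled-miRNA libraries (11, 34.7 and 26.6 reads). Its deposited log2 fold was 5.28 (SE 0.83, adjusted p = 2.05e-07). In the complement and acute-phase list, which includes Serpina3n, 4 of 31 tested members were called higher and 2 lower, and these 12.9% and 6.45% lay near the 11.1% and 6.75% of all genes. The complement regulator gene Cd55 had a fold of 1.57 (SE 0.51), and C1qb, a subunit of the C1q complex made by macrophages, a fold of -1.58 (SE 0.60).

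The classical injury markers were not called, while other genes of the injury list were. Of the 39 tested members of the tubule injury list, 11 were called higher in untreated injury and none lower in the authors' deposited table. That was 28.2% against 11.1% of all genes, with a median log2 fold of 0.39. For Havcr1 the deposited fold was -0.17 (SE 0.47, adjusted p = 0.493). Lcn2, at 10.3, 17.8 and 61.2 TPM in the scrambled-miRNA libraries, had a fold of 0.44 (SE 0.81) and missed the threshold narrowly (adjusted p = 0.0509). Spp1 (osteopontin), at 265, 740 and 1275 TPM, had a fold of 0.50 (adjusted p = 0.218). For these 3 genes the scrambled-miRNA libraries spanned a wide range, with library 1 the lowest each time. Repair-state regulators were called. Sox4 was at 1.23, 1.51 and 2.11 TPM in the scrambled-miRNA libraries, with a fold of 3.31 (SE 0.62, adjusted p = 5.29e-06), and Sox9 was at 0.271, 1.15 and 0.532 TPM with a fold of 2.56 (SE 0.88, adjusted p = 0.0036). Ccn2, a matrix protein gene induced by YAP, was at 3.98, 3.35 and 3.69 TPM with a fold of 3.09 (SE 1.09).

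Keratins, the intermediate filaments of simple epithelia, followed the same split. Of the 9 tested, 5 were called higher (55.6% against 11.1% of all genes) and none lower in the authors' deposited table. Krt8 was at 38.9, 80.9 and 105 TPM in the scrambled-miRNA libraries with a fold of 1.49 (SE 0.66, adjusted p = 0.0159), and its partner Krt18 was at 2.74, 5.71 and 3.90 TPM with a fold of 2.28 (SE 0.85). Krt20 was not called, with a fold of 0.19 (SE 0.52, adjusted p = 0.129). Among claudins, the tight junction proteins that set paracellular permeability, 6 of 15 were called higher and 2 lower. These were 40% and 13.3%, against 11.1% and 6.75% of all genes. Those higher included Cldn4, with a fold of 2.14 (SE 1.79), and Cldn3, with a fold of 1.82 (SE 0.82). Cldn2, the cation-permeable claudin of the proximal tubule, was at 523, 293 and 250 TPM and had a fold of -1.18 (SE 0.44, adjusted p = 0.00914).

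Part of the p53 response genes, Cdkn1a among them, were higher in untreated injury, and part of the replication genes were lower. The authors' deposited table had 11 of the 29 tested p53 response genes called higher and none lower. That was 37.9% against 11.1% of all genes, with a median log2 fold of 0.28. Cdkn1a (p21), the inhibitor that stops cells in G1, was at 4.30, 10.1 and 12.9 TPM in the scrambled-miRNA libraries, and its fold was 3.68 (SE 0.82, adjusted p = 6.81e-05). Trp53inp1 was at 3.86, 2.41 and 2.11 TPM with a fold of 3.72 (SE 0.68, adjusted p = 4.54e-06). Bbc3 (PUMA), a proapoptotic gene, had a fold of 2.18 (SE 1.02). Ccng1, an abundant p53 target at 40.0, 47.6 and 40.9 TPM, was not called (fold -0.28, adjusted p = 0.132).

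Of the 16 genes for the replicative helicase and its loaders, none was called higher and 4 lower (25% against 6.75% of all genes, median log2 fold -0.45) in the authors' deposited table. Mcm5, a helicase subunit gene, was at 9.20, 3.31 and 6.14 TPM in the scrambled-miRNA libraries with a fold of -0.91 (SE 0.45), and Gins2, of the complex that activates the helicase, at 8.55, 4.79 and 10.3 TPM with a fold of -1.12 (SE 0.45, adjusted p = 0.0148). In the wider S phase and mitosis list, 9 of 39 were called lower and 3 higher (23.1% and 7.69%, against 6.75% and 11.1%). E2f1, the transcription factor of the G1 to S transition, had a fold of -1.49 (SE 0.47), and Top2a, the topoisomerase of dividing cells, a fold of -2.29 (SE 0.64). Those higher were Cenpa (3.72, SE 1.01), Kif23 (2.51, SE 1.07) and Nusap1 (1.75, SE 0.64), which act in mitosis and cytokinesis. Pcna, the polymerase clamp gene, had a fold of 0.00 (SE 0.19). Top2a had a low level, at 0.557, 0.696 and 0.647 TPM. The S phase and mitosis list as a whole summed to 438, 241 and 264 TPM in the scrambled-miRNA libraries.

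Genes of the PI3K, AKT and FoxO pathway were examined because miR-486-5p is known to target Foxo1. Growth factor signalling through AKT keeps FoxO factors out of the nucleus, and FoxO induces atrophy and arrest genes when it enters. The authors' deposited table had 13 of 38 members called higher in untreated injury and none lower (34.2%, median log2 fold 0.44). These members have long transcripts, and the same mix of lengths over all genes tested gave 14.2% higher. Ccng2 was at 6.98, 7.56 and 3.06 TPM in the scrambled-miRNA libraries with a fold of 2.93 (SE 0.62, adjusted p = 2.96e-05). The atrophy ubiquitin ligase genes Fbxo32 (2.39, SE 0.79) and Trim63 (2.27, SE 0.80) were also called, and Trim63 stood at 4.96, 3.32 and 1.05 TPM. Foxo1 itself, at 3.33, 3.19 and 1.60 TPM, had a fold of 0.57 (SE 0.30, adjusted p = 0.0884). Of 12 tested genes reported as miR-486-5p targets, 3 were called higher and none lower (25%, against 13.4% for their length mix over all genes tested). They were Pim1, a survival kinase gene (3.11, SE 0.68), Sirt1, a deacetylase gene (1.09, SE 0.36), and Igf1r, the receptor gene (0.66, SE 0.24).

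Pdk4 and several genes of the hypoxia response were higher in untreated injury, while glycolytic enzyme genes were called in both directions or not at all. Pdk4, which blocks entry of pyruvate into the citric acid cycle, was at 5.44, 28.4 and 5.94 TPM in the scrambled-miRNA libraries with a fold of 4.25 (SE 1.26, adjusted p = 0.00107) in the authors' deposited table. Of 35 tested genes of glycolysis and the hypoxia response, 11 were called higher and 1 lower (31.4% higher against 11.1%, median 0.14). Ddit4 (REDD1), which restrains mTORC1, was at 10.2, 6.18 and 4.20 TPM with a fold of 3.47 (SE 0.69), and Slc2a1 (GLUT1) at 8.46, 7.25 and 18.6 TPM with a fold of 3.16 (SE 0.75). Pkm, the pyruvate kinase gene, had a fold of 1.90 (SE 0.45). The abundant enzyme genes Aldoa (-0.05, SE 0.16) and Ldha (-0.26, SE 0.16) were not called, and Tpi1 was lower (-0.68, SE 0.20, adjusted p = 0.00333). Metal and oxidant defence genes were partly called. Mt1, the metallothionein, was at 88.1, 84.8 and 262 TPM with a fold of 2.36 (SE 0.69, adjusted p = 0.00131), Nfe2l2 (NRF2) had a fold of 2.49 (SE 0.51) at an even 15.4, 14.9 and 16.2 TPM, and Hmox1, which degrades heme, a fold of 0.99 (SE 0.45). In the NRF2 list, 3 of 30 were called higher and 2 lower, near the shares over all genes.

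Most mitochondrially encoded genes were higher in untreated injury, and a minority of the nuclear genes for the same complexes were lower. The authors' deposited table had 9 of 13 mitochondrially encoded genes called higher in untreated injury and none lower (69.2%, median log2 fold 0.86), and all 13 folds were positive. Of 75 nuclear genes for respiratory chain and ATP synthase subunits, none was called higher and 17 lower (22.7% against 6.75% of all genes, median -0.19), and 58 were not called. mt-Co1, of cytochrome oxidase, was at 4521, 7750 and 4983 TPM in the scrambled-miRNA libraries with a fold of 0.98 (SE 0.43, adjusted p = 0.0242), and mt-Nd1, of complex I, at 3622, 5632 and 3870 TPM with a fold of 1.00 (SE 0.40, adjusted p = 0.0164). All 13 mitochondrial genes had their lowest scrambled-miRNA level in library 1, and 72 of the 75 nuclear ones had their highest there. Among the nuclear genes called lower, Atp5k was at 1054, 507 and 638 TPM with a fold of -0.92 (SE 0.26), and Atp5j at 3111, 1930 and 1867 TPM with a fold of -0.82 (SE 0.21, adjusted p = 0.000986). Atp5b, the catalytic beta subunit gene, was not called (0.13, SE 0.19). Short transcripts were called lower more often in this table, and the length mix of these 75 genes gave 9.10% lower over all genes tested. The part of length, and of the spread between libraries, in these values was not tested.

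Genes that define the proximal tubule were seldom called. Of 49 tested transporters, 1 was called higher and none lower in the authors' deposited table (median log2 fold -0.18), against the 11.1% and 6.75% of all genes. For Slc34a1 the fold was 0.05 (SE 0.32, adjusted p = 0.911). Lrp2 (megalin), the endocytic receptor, was at 99.7, 49.0 and 18.8 TPM in the scrambled-miRNA libraries with a fold of -0.41 (SE 0.34, adjusted p = 0.254), and Slc7a13, a transporter of the S3 segment, had a fold of 0.07 (SE 0.33). The transcription factor gene Hnf4a, at 175, 101 and 78.8 TPM, had a fold of -0.51 (SE 0.34, adjusted p = 0.147), and Ppara, the regulator of fatty acid oxidation, a fold of 0.41 (SE 0.23). The 1 transporter called was Slc22a7, an organic anion transporter (1.62, SE 0.98, adjusted p = 0.0284). Library 1 was the highest scrambled-miRNA library for 37 of the 49 transporters and library 2 for 11.

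Of 40 proximal tubule enzyme genes, 5 were called lower and none higher in the authors' deposited table. That was 12.5% against 6.75% of all genes, with a median log2 fold of 0.03. Gatm, the first enzyme of creatine synthesis, was at 468, 162 and 66.8 TPM in the scrambled-miRNA libraries with a fold of -1.72 (SE 0.80, adjusted p = 0.0142). Keg1, a gene expressed mainly in kidney, was nearly even at 1317, 1111 and 1048 TPM with a fold of -1.21 (SE 0.64, adjusted p = 0.0305). Acsm2, at 3096, 2632 and 1464 TPM, had a fold of 0.09 (SE 0.28). For fatty acid oxidation, 1 of 38 genes was called higher, Pdk4, and 3 lower (7.89%, near the 6.75% of all genes). For cytosolic ribosomal proteins, 1 of 79 was called, lower.

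Most markers of the neighbouring thick ascending limb were higher in untreated injury. Of 15 tested, 9 were called higher and 1 lower in the authors' deposited table (60% against 11.1%, median log2 fold 1.13). Umod (uromodulin), its main secreted protein, was at 387, 228 and 154 TPM in the scrambled-miRNA libraries with a fold of 2.50 (SE 0.57, adjusted p = 9.75e-05). Slc12a1, the furosemide-sensitive cotransporter, was at 11.1, 5.96 and 2.86 TPM with a fold of 2.49 (SE 0.59). Kcnj1 (ROMK) was not called (-0.44, SE 0.39), and Cldn10 was lower (-0.94, SE 0.41). In the distal tubule and collecting duct list, 3 of 23 were called higher, near the share over all genes. The summed TPM of the thick ascending limb list was 666, 461 and 289 in the scrambled-miRNA libraries, 358 to 674 in the exosome libraries and 279 and 711 in those with mimic, and the untreated libraries gave no such sum here. The part of this segment in the other lists was not tested.

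Among other cell types, 7 of 23 endothelial markers were called higher and none lower (30.4% against 11.1%, median log2 fold 0.72) in the authors' deposited table. Pecam1 (CD31) was called at a log2 fold of 0.85 (SE 0.25, adjusted p = 0.00346), Cdh5, the endothelial cadherin gene, was at 1.70, 1.24 and 1.54 TPM in the scrambled-miRNA libraries with a fold of 1.5 (SE 0.42), and Kdr was not called (0.85, SE 0.49, adjusted p = 0.0587). Sele (E-selectin), an adhesion molecule of activated endothelium, had 1, 0 and 0 reads in the scrambled-miRNA libraries and the largest deposited fold among called genes with a base mean of at least 100, at 6.40 (SE 2.65, adjusted p = 0.00374). Of 21 macrophage markers, 4 were called lower and none higher (19% against 6.75% of all genes, median -0.40), and 17 were not called. Lyz2 (lysozyme) was at 6.67, 7.40 and 9.69 TPM with a fold of -1.82 (SE 0.47, adjusted p = 0.000449), and Cx3cr1 had a fold of -1.36 (SE 0.89). In the MHC list, 6 of 21 were called lower and 2 higher (28.6% and 9.52%, against 6.75% and 11.1%). Class II genes were among those lower, including H2-Ab1, at 36.9, 119 and 26.2 TPM (-1.62, SE 0.72), and H2-Eb1, at 1.02, 3.32 and 1.70 TPM (-2.03, SE 0.66). The 2 higher were the class I genes H2-Q4 (1.69, SE 0.55) and H2-Q6 (1.64, SE 0.72), near-identical copies whose reads may be shared. No neutrophil marker of 9 was called. The endothelial list summed to 103, 53.7 and 76.6 TPM in the scrambled-miRNA libraries, the macrophage list to 45.4, 61.9 and 85.2 TPM and the neutrophil list to 6.53, 31.4 and 5.88 TPM. The neutrophil markers Ly6g, Ngp and Camp were at 0 in all 3 libraries, while no listed endothelial or macrophage marker was. The part of these cell types in the other lists was not tested.

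**Figure D3:**
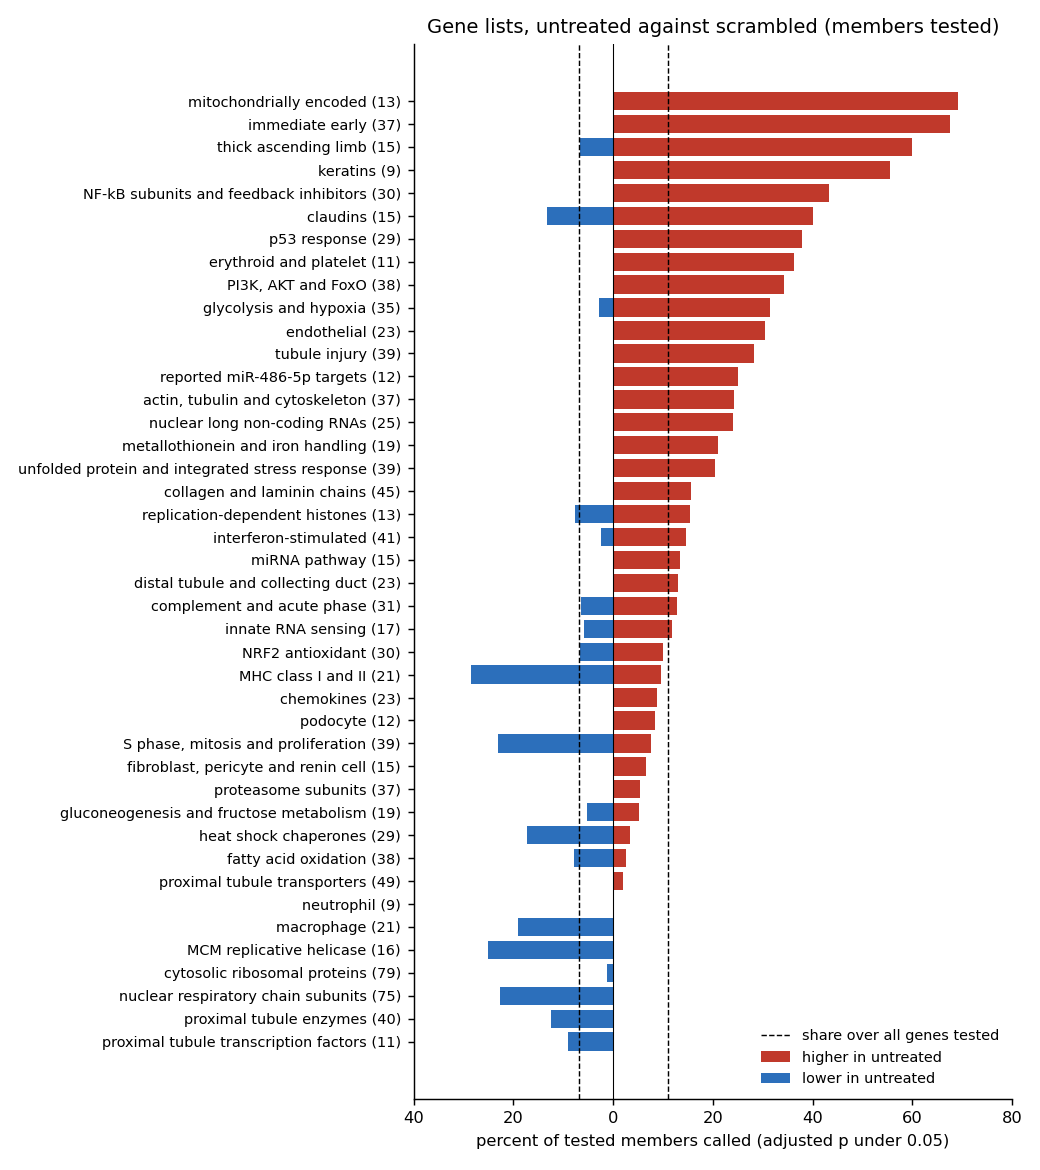
Percent of tested members of each gene list (9 or more tested, number in brackets) called at a deposited adjusted p under 0.05, higher in untreated injury to the right in red and lower to the left in blue. Dashed lines give the shares over all genes tested, 11.1% and 6.75%. Mitochondrially encoded (69.2%), immediate early (67.6%) and thick ascending limb genes (60%) lie furthest to the right, and MHC genes, with 6 of 21 lower, furthest to the left.

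Of 29 heat shock chaperone genes, 5 were called lower in untreated injury and 1 higher in the authors' deposited table (17.2% and 3.45%, against 6.75% and 11.1% of all genes). The list's median log2 fold was 0.09, and 17 of the 29 folds were positive. The HSP90 cochaperone gene Fkbp4, at 134, 80.6 and 91.3 TPM in the scrambled-miRNA libraries, showed a fold (log2) of -1.01 (SE 0.35), and Bag3, of chaperone-assisted autophagy, was even at 4.42, 4.38 and 4.52 TPM with a fold of 1.35 (SE 0.37, adjusted p = 0.001). The inducible HSP70 gene Hspa1a, whose reads may be shared with its near-identical copy Hspa1b, was not called (0.46, SE 0.60). In the unfolded protein and integrated stress response list, 8 of 39 were called higher (20.5% against 11.1% of all genes) and none lower. The list's median fold rounded to 0.00. Collagen and laminin chains had 7 of 45 called higher, against 14.4% for their length mix, and Col6a3, a chain of microfibrillar collagen, led with 4.42 (SE 0.77, adjusted p = 1.81e-06) at 19, 8 and 18 reads in the scrambled-miRNA libraries.

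The genes with the largest folds higher in untreated injury, at a base mean of at least 100, mostly had few reads in the scrambled-miRNA libraries. The rule itself favours this, because base mean is averaged over all tubular libraries and can be met through other groups. Those higher in untreated injury also included, beside Sele, Il6 and Serpina3n, Mctp2, a calcium-binding membrane protein gene (5.37, SE 1.76), Depp1, a FoxO-induced gene (4.65, SE 1.39), Map3k8, a kinase gene of inflammatory signalling (4.59, SE 1.10), and Dio3, the deiodinase that inactivates thyroid hormone (4.38, SE 1.01) in the authors' deposited table. Depp1 was at 2.29, 8 and 2.08 TPM in the scrambled-miRNA libraries, Mctp2 had 5, 0 and 6 reads and Dio3 had 6, 1 and 7. The 10 lower genes of this rule had folds from -2.01 for H2-DMa, of class II peptide loading, to -4.51 for Ccnd2. Chek1, the replication checkpoint kinase gene, was at 3.57, 6.57 and 5.12 TPM with a fold of -2.29 (SE 1.00, adjusted p = 0.00942). Gm28437 is an unprocessed pseudogene on chr1:24613189-24613971 with 458, 314 and 113 TPM (-3.80, SE 0.74), and its reads may be shared with near-identical copies.

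Among genes with a base mean of at least 100, the one with the largest lower fold was high in 1 library in TPM but not in reads. Ccnd2 (cyclin D2) was at 0.276, 0.274 and 24.4 TPM in scrambled-miRNA libraries 1, 2 and 3, while its estimated reads were 39, 35.6 and 34. TPM divides reads by the length of the transcripts they were assigned to, so the same reads assigned to a short transcript give a high TPM. Its deposited base mean was 480, above any of the read numbers, and its log2 fold was -4.51 (SE 1.34, adjusted p = 0.000921). Of the 1139 genes called lower, 5 had a highest scrambled-miRNA library over 4-fold above the next in TPM, and none of these 5 did in CPM (reads scaled to the library total). The others were 2210418O10Rik, 1700034H15Rik, Zfp93 and Mfsd8. Of the 1866 genes called higher, 7 met the same limit in TPM. Of the 13869 genes not called, 110 met it, a larger share than in either called set. How the transcript assignment entered the deposited folds was not tested.

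Calls also moved with transcript length. The genes tested were divided into 5 equal classes by their longest annotated transcript. In the class of the shortest, 6.31% were called higher in untreated injury and 10.2% lower, and in that of the longest 15.6% and 3.11%. The median longest transcript was 3693 bases for genes called higher, 2442 for genes called lower and 3026 for genes not called. The share called higher also ran with GC content, from 7.50% in the lowest of 5 classes to 14.6% in the highest. By base mean, it was 4.09% in class 1, the lowest, 14.6% in class 4 and 12.1% in class 5. The share called lower rose from 2.58% in the lowest base mean class to 9.75% in the highest. The length mix of the immediate early list gave 10.3% higher over all genes tested, and that of the mitochondrially encoded list 6.50%, against 67.6% and 69.2% of their own members. The part of length, GC content or base mean in single calls was not tested.

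**Figure D4:**
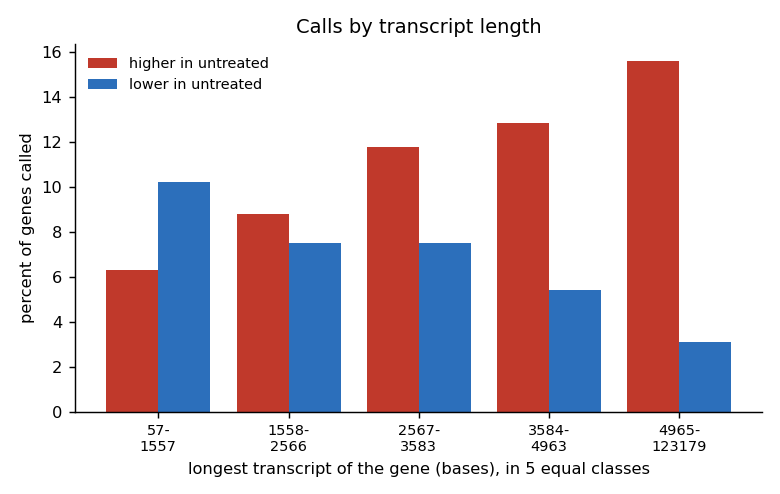
Percent of genes called higher (red) or lower (blue) in untreated injury, in 5 equal classes of the longest annotated transcript in bases. The share called higher rises from 6.31% to 15.6% across the classes and the share called lower falls from 10.2% to 3.11%.

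The authors also deposited untreated injury against sham, exosomes and mimic, and these tables share the untreated libraries with the present one, so their values are given side by side only. Of all genes tested, 20.2% were called against sham (11.5% higher and 8.65% lower in untreated injury), 30.9% against exosomes (17.6% and 13.3%) and 22.9% against mimic (14.1% and 8.78%). Immediate early genes had a median log2 fold of 1.87 against scrambled miRNA, 0.33 against sham, 2.67 against exosomes and 2.70 against mimic, with 25, 6, 30 and 27 of 37 called higher. Sham libraries come from the same earlier deposit as untreated ones. Arc showed a fold (log2) of 0.16 (adjusted p = 0.682) against sham and 4.91 against exosomes in the authors' deposited tables, and Gadd45b 0.33 and 4.48. The thick ascending limb list had medians of 1.13, -0.04, 0.86 and 1.18 against scrambled miRNA, sham, exosomes and mimic. Umod had folds of 2.50, 0.85, 2.70 and 2.37 in that order.

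Other genes differed from sham as well. In the authors' deposited tables, Serpina3n had log2 folds of 5.28, 6.21, 8.34 and 8.32 against scrambled miRNA, sham, exosomes and mimic, Cdkn1a of 3.68, 4.75, 5.91 and 6.29, Sox9 of 2.56, 4.51, 7.86 and 7.14, and Mt1 of 2.36, 3.45, 4.6 and 4.13. For these 4 genes the fold against scrambled miRNA was the smallest of the set. The injury markers without a call against scrambled miRNA had high folds against the other groups. Havcr1 had -0.17, 5.19, 4.17 and 5.03, Krt20 0.19, 11.53, 13.37 and 13.10, and Spp1 0.50, 3.58, 3.37 and 4.39. The tubule injury list had medians of 0.39, 1.82, 3.02 and 3.62, with 11, 26, 36 and 36 of 39 called higher. Mitochondrially encoded genes had medians of 0.86, 0.17, 0.18 and 0.80, with 9, 0, 0 and 6 of 13 called higher. Lyz2 had folds of -1.82, -0.01, -1.28 and 0.02. The helicase list had medians of -0.45, 0.65, 0.66 and 0.55.

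**Figure D5:**
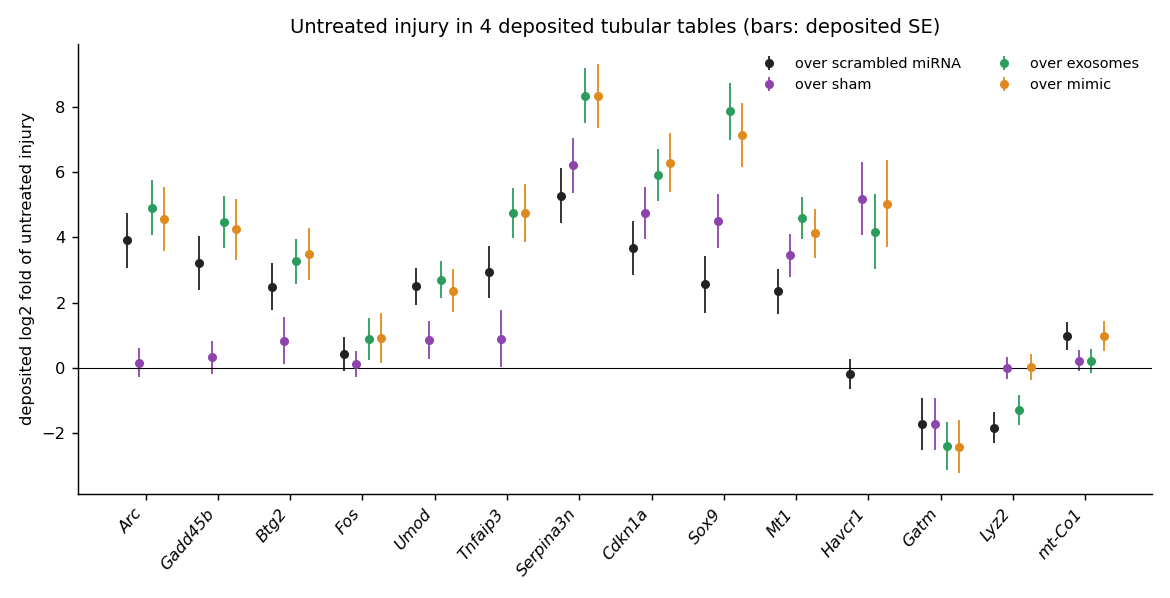
Deposited log2 folds of untreated injury over scrambled miRNA (black), sham (purple), exosomes (green) and mimic (orange) for 14 genes, with the deposited SE as bars. Krt20 is not drawn because its folds reach 13.37. Arc and Gadd45b lie near 0 against sham only, Serpina3n and Cdkn1a lie above 0 in each table, and Havcr1 lies near 0 against scrambled miRNA only.

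Endothelial cells of the same study, isolated with CD31 beads, gave far fewer calls for the same contrast. In the authors' deposited table, 154 of 20333 genes tested (0.757%) were called, 70 higher in untreated injury (0.344%) and 84 lower (0.413%), and 2709 genes had an unadjusted p under 0.05. Genes called in both cell types numbered 23, which is 0.765% of the tubular calls and 14.9% of the endothelial ones. Over all genes tested, 0.757% were called in endothelial and 17.8% in tubular cells, so both shares lay near those over all genes. Of the 154 endothelial calls, 132 were tested in tubular cells. Among the 23 shared genes, 21 had the same direction, 15 higher and 6 lower. The shared genes given here were chosen after their values were seen. H2-Eb1 had log2 folds of -2.03 in tubular and -1.98 in endothelial cells, and Itgax (CD11c), of dendritic cells and macrophages, of -2.44 and -3.04. Herpud1, of endoplasmic reticulum protein disposal, had 1.69 and 1.64, Mtor 1.65 and 1.15, and Slc22a7 1.62 and 2.69. Zfp93 had opposite signs (-1.31 and 2.52). No immediate early gene of 37 and no tubule injury gene of 38 was called in endothelial cells, near the 0.757% over all genes tested. The medians of these lists were 0.02 and -0.02. Whether the contrast differs between the cell types was not tested.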

How the data were processed

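The tools listed, per the submitters' processing notes, are DESeq2 and Salmon 0.13.1, with GRCm38 as the build and no settings. Per the file headers, the deposited tables hold base mean (a normalized signal averaged over libraries), log2 fold change with its standard error, p-value and adjusted p-value. The authors' deposited quantification files hold TPM and estimated counts per transcript, summed here to genes with GENCODE M21. The untreated libraries have no quantification files here, so no test was run: genes were called at a deposited adjusted p under 0.05, which equals a Benjamini-Hochberg adjustment over the 16874 genes. Positive folds are higher in untreated injury. This reading follows the table's name, and 93.5% of genes called higher and 79.8% of genes called lower lay on the matching side of the median ratio of scrambled-miRNA level to base mean. Samples were grouped by title. The labels name 3 male mice per group. The 5 deposited tubular tables read here hold the same base means, which points to a joint fit over the tubular groups. The p-values may therefore rest on a spread pooled over those groups, not on the spread within these samples alone. A total of 45 gene lists (1260 genes, 1231 matched by symbol) were described by counts and medians. Members and lists were chosen with earlier results of these data known. Named genes were the 10 largest folds each way among called genes with a base mean of at least 100, up to 4 called and 2 abundant uncalled members per list, and a fixed set of markers. Some genes that this rule names are not reported here. Genes with a base mean under about 10.4 carried no adjusted p. The counting code was tested on simulated tables. Python 3.11.15 and pandas 2.3.3 were used.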

Additional observations from a re-analysis of the deposited data

How the results depend on the processing

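At a deposited adjusted p under 0.01, 956 genes were higher and 351 lower in untreated tubular injury, and 56 were called in endothelial cells. At 0.1, the lower tubular genes numbered 1832 and the endothelial ones 380, while the higher ones numbered 2556. A log2 fold of at least 1 in size left 1231 higher and 386 lower. Readjusting over every gene with a p gave 1669 and 894, a base mean of at least 10 gave 1861 and 1133, and one of at least 100 gave 1723 and 1127. Leaving out genes over 4-fold higher in 1 scrambled-miRNA library, an alternative chosen after seeing the data, gave 1859 and 1134. At 0.1, 31 of 90 list counts grew by over 1.5 times or rose from 0. With members of a base mean of at least 10, each of the 45 list medians kept its sign. CPM in place of TPM moved 230 of 284 scrambled-miRNA levels by over 1 SD, as the scales differ, and leaving out 1 library moved none that far, which with 3 libraries holds by construction. Not run were leaving out replicates of the comparison and deriving its direction through other tubular tables. None of those read here holds the tubular scrambled-miRNA group. For untreated injury against exosomes, folds derived through sham had a Pearson r of 0.882 with the deposited ones over 19299 genes. No paired analysis was possible because the untreated libraries enter only through a deposited table.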
